A study of Mus musculus with 4 samples.

Results

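Pericytes and the other mural cells of brain vessels were examined in 4 mouse tumors profiled by droplet single-cell RNA sequencing. Cells were selected on their measured RNA. A barcode was kept when it had at least 200 genes, under 25% mitochondrial UMIs (unique molecular identifiers, each counting 1 captured RNA molecule) and at most 40000 UMIs. A kept cell was a member when it had a UMI of at least 3 of the 6 mural genes Rgs5, Vtn, Pdgfrb, Abcc9, Kcnj8 and Higd1b. It could hold at most 1 of 5 endothelial genes (Cldn5, Flt1, Pecam1, Cdh5, Ly6c1), at most 1 of the 3 genes C1qa, C1qb and C1qc, and fewer than 5 UMIs of the 2 reporter transcripts of the transgene, FLUC and humanNMYC. The selection gave 846 mural cells among 10975 kept cells and 11834 barcodes.

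All 4 mice carried hGFAP-cre::TP53Fl/Fl::lsl-MYCN and modeled pediatric high-grade glioma of the MYCN subclass. Cre under the hGFAP promoter removed Trp53 and switched on human MYCN, linked to luciferase (FLUC), in neural precursors and their progeny. A tumor-free brain was not analysed here. Mice 4 and 5 were sampled at 43 days (P43) and mice 6 and 7 at 70 days (P70). There were 2 tumors for each age and 1 library for each tumor. According to the paper, the cells came from olfactory bulb or tumor tissue. The paper places P43 at early onset of the tumor and P70 at a more developed stage. Mice 4, 5, 6 and 7 gave 379, 268, 167 and 32 mural cells, 647 at P43 and 199 at P70.

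Pericytes sit on capillaries inside the basement membrane they share with the endothelium. Endothelial PDGF-B recruits them through the receptor Pdgfrb, they help to keep the blood-brain barrier closed, and ATP-sensitive potassium channels built from Kcnj8 and Abcc9 set their membrane potential. Vascular smooth muscle cells, the other mural cells, wrap arterioles and carry a contractile apparatus with Acta2, Tagln and Myh11.

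The libraries differed before any gene was compared. They held 15044263, 13106786, 18698291 and 40621958 UMIs in mice 4, 5, 6 and 7. The mural cells together held 815536, 1014273, 861635 and 87818 of them, with a median of 1829, 3574.5, 2207 and 1534.5 UMIs per mural cell. Mouse 7 therefore rested on the fewest cells and the fewest UMIs. The recorded sexes and the Y-linked transcripts disagreed at P43: mouse 4 is recorded as female and its mural cells had 146 CPM (UMI counts scaled to 1000000 per class and mouse) of Ddx3y, whereas mouse 5 is recorded as male and had none. Ddx3y stood at 85.9 CPM in mouse 6, recorded as male, and at 0 CPM in mouse 7, recorded as female. The 4 Y-linked genes summed to 264, 0.986, 171 and 0 CPM, so that each age held 1 library with and 1 with almost no Y-linked RNA, whichever P43 label is right. A total of 15 barcodes occurred in more than 1 library. Among the members, 1 barcode was also present in another library and none was a member in both.

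The members just inside the limit, with exactly 3 mural genes, numbered 116, 8, 43 and 4 in mice 4, 5, 6 and 7, with a median of 822.5, 584.5, 866 and 1568.5 UMIs. Just outside it, 150, 5, 51 and 2 cells had 2 mural genes and passed every exclusion, with a median of 851, 5016, 1281 and 1709.5 UMIs. At the other end, 415 members had all 6 mural genes. Of 939 kept cells with at least 3 mural genes, 93 failed an exclusion. Most of those, 39 in mouse 4, 4 in mouse 5 and 24 in mouse 6, held 2 or more endothelial genes. No doublet caller was run beyond these exclusions.

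The label was checked against markers outside the selection. All 16 other pericyte genes examined were detected in the mural cells of each of the 4 mice. Cspg4 (NG2), a proteoglycan of mural cells, stood at 698, 1054, 443 and 467 CPM, and endothelial cells, picked by the mirrored rule, held 0 to 1.8 CPM of it. Notch3, the mural Notch receptor, stood at 645, 942, 569 and 501 CPM and at most 14.8 CPM in endothelial cells. The hypoxia-linked mural gene Ndufa4l2 stood at 1383, 1638, 863 and 1127 CPM. Not every gene of the list set mural cells apart from endothelium. The transcription factor gene Foxf2 was lower in mural cells, with 80.9, 125, 45.3 and 22.8 CPM against 141, 178, 139 and 119 CPM in endothelial cells, and endothelial cells also held 124 to 224 CPM of Foxc1 and 163 to 325 CPM of Ebf1. Markers of other cell types varied in level. The 7 oligodendrocytic markers were the highest of these lists in mouse 4 and summed to 1681, 240, 42.9 and 45.5 CPM, with Mbp in 25.6% of the members of mouse 4 at 1000 UMIs. The 4 hemoglobin genes summed to at most 1.23 CPM, the 6 astrocyte markers to at most 18.6 CPM and the 4 neutrophil markers to at most 23.2 CPM in any mouse. The 6 lymphoid markers summed to 2.45, 1.97, 12.8 and 102 CPM, with Nkg7 the most abundant in mice 6 and 7, and the 6 neuroblast markers to 30.7, 28.6, 10.4 and 22.8 CPM. The 8 other myeloid markers summed to 23.3, 379, 306 and 34.2 CPM, with Cd74 at 11.0, 355, 130 and 0 CPM and P2ry12 at 0 except in mouse 6. The 8 other endothelial markers summed to 298, 244, 360 and 216 CPM, led by Emcn. Both ages thus had the mural genes, and mouse 4 carried oligodendrocytic RNA beside them.

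Of the genes that chose the cells, only values are given. Rgs5, a brake on G protein signalling, stood at 8477, 13583, 14919 and 11786 CPM in mice 4, 5, 6 and 7. Abcc9, the regulatory subunit of the channel, stood at 882, 1295, 935 and 922 CPM, and its pore subunit Kcnj8 at 639, 1075, 891 and 695 CPM. The receptor Pdgfrb stood at 1393, 1865, 1236 and 979 CPM. Vtn, the secreted adhesion protein vitronectin, had 12988 and 15338 CPM at P43 against 4442 and 3393 CPM at P70. Higd1b, a marker gene of brain pericytes, was also lower at P70, with 1962 and 2382 CPM at P43 and 1246 and 1310 CPM at P70. For both genes, and by less for Pdgfrb, the ages did not overlap. The P70 mice lay below the P43 mice in this way for 38.4% of all genes tested. No change with age is read from these genes, because they chose the cells. In single cells of mouse 5 the middle 50% of members held 11.4 to 19.9 Vtn UMIs per 1000, and in mouse 6 they held 1.85 to 5.42. In mouse 4 they spread from 3.51 to 18.2 and in mouse 7 from 1.29 to 11.3, so that the cells of these mice overlapped.

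Mural cells made up 11.4%, 18.4%, 6.11% and 0.922% of kept cells in mice 4, 5, 6 and 7 (95% Clopper-Pearson intervals 10.4 to 12.6%, 16.5 to 20.5%, 5.24 to 7.08% and 0.632 to 1.3%, which cover counting error only). Both P43 values exceeded both P70 values, 14.9% ± 4.95 against 3.52% ± 3.67 (mean ± SD, n = 2 mice), and the exact two-sided permutation test gave p = 0.3333, the smallest p that 2 against 2 mice allow. The share of mural cells among vessel cells (mural plus endothelial) was 43.8%, 35.3%, 40.9% and 49.2%. These values overlapped between the ages (exact two-sided permutation test, p = 0.6667). The number of cells set free by dissociation and the number in the tissue cannot be told apart in these shares.

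**Figure D1:**
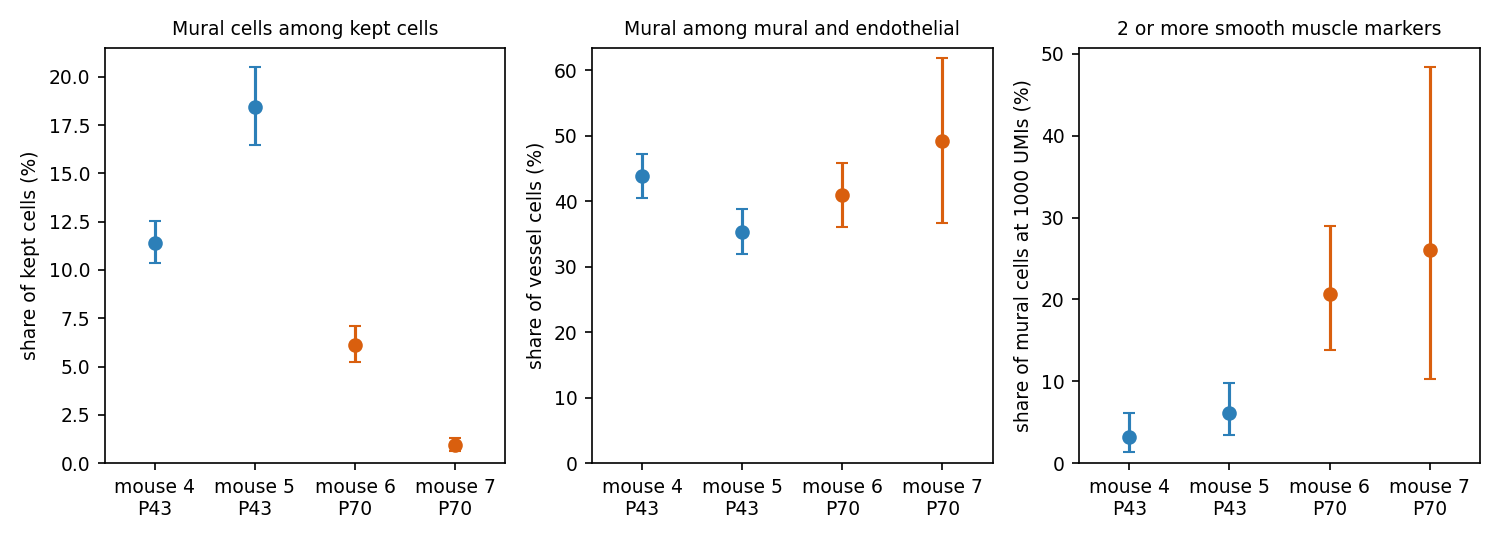
Share of mural cells among kept cells (left), among vessel cells (middle) and share of mural cells with at least 2 smooth muscle markers after thinning to 1000 UMIs (right), in percent, for mice 4 and 5 (P43, blue) and 6 and 7 (P70, orange). Bars are 95% Clopper-Pearson intervals. Mural cells ranged from 0.922% of kept cells in mouse 7 to 18.4% in mouse 5, while their share of vessel cells lay between 35.3% and 49.2%.

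UMIs were then summed over the members of each mouse and the ages were compared with edgeR's quasi-likelihood test, adjusted by Benjamini-Hochberg over all genes tested. Outside the selection genes, 8636 genes were tested, of which 566 rose (6.55% of genes tested) and 416 fell (4.82%) from P43 to P70. The median log2 fold change over all tested genes was -0.077. With library size in place of TMM scaling that median was -0.227 and the calls split into 464 higher and 590 lower. Age, tumor stage, the amount of olfactory bulb tissue, library preparation and the individual tumor cannot be told apart with 2 mice per age. The part of tumor stage and bulb tissue in these calls was not tested. Leaving out mouse 6 brought the number of calls from 982 to 305, and only the 32 cells of mouse 7 then stood for P70.

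Transporter genes and some pericyte genes were lower at P70. In the list of 13 solute carriers and related transport genes, 7 of 10 tested genes fell, none rose and 3 did not pass, with a median log2 fold change of -2.03. Without mouse 6, 6 of 11 tested genes of the list fell. The amino acid transporter Slc6a20a fell from 871 and 814 CPM to 54.5 and 114 CPM, an 11.4-fold change (log2 fold change -3.51, SE 0.33, adjusted p = 2.58e-06). Every P70 value was below every P43 value, and Slc6a20a was found in 54.7% and 57.5% of P43 members against 5.79% and 13.0% of P70 members at 1000 UMIs per cell. In endothelial cells the share was at most 0.623%. Atp1b2, a sodium pump beta subunit, fell from 612 and 760 CPM to 205 and 159 CPM (log2 fold change -1.69). The organic anion transporter Slc22a8 (OAT3) fell from 244 and 249 CPM to 18.6 and 34.2 CPM, and the folate carrier Slc19a1 from 591 and 704 CPM to 132 and 194 CPM. Slc7a2, a cationic amino acid transporter, did not pass, with 146, 125, 124 and 56.9 CPM. The list was thus lower in most but not all of its members.

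Of the 16 other pericyte genes, 6 fell, none rose and 10 did not pass, with a median log2 fold change of -0.87. Atp13a5, a P5-type transport ATPase used as a marker of brain pericytes, fell from 1467 and 1699 CPM to 198 and 205 CPM (log2 fold change -2.83, SE 0.27, adjusted p = 2.97e-06). P2ry14, a receptor for UDP-sugars, fell from 920 and 1128 CPM to 208 and 273 CPM. Rgs4, a relative of Rgs5, fell from 1296 and 1688 CPM to 373 and 399 CPM. Ggt1, the gamma-glutamyl transferase of brain pericytes, fell by 1.94, Gper1 by 1.13 and Art3 by 0.98 on the log2 scale. Cspg4, Notch3 and Ndufa4l2 did not pass. Neither did the transcription factors. Tbx18 stood at 168, 155, 92.8 and 22.8 CPM, Foxc1 at 234, 316, 174 and 102 CPM and Ebf1 at 571, 826, 767 and 581 CPM. Cd248 (307, 551, 680 and 752 CPM) and Mcam (215, 401, 491 and 456 CPM) did not pass either, with both P70 values above both P43 values. The P70 mice lay above the P43 mice in this way for 2 of the 16 genes, against 15.9% of all genes tested. They lay below them for 13 of the 16, against 38.4%. Members with at least 2 smooth muscle markers, described further on, held 41324, 111909, 524953 and 52396 of the mural UMIs in mice 4, 5, 6 and 7, the larger part at P70. In the other members Atp13a5 stood at 1497, 1764, 345 and 452 CPM and P2ry14 at 931, 1148, 279 and 565 CPM. Without members that had 2 or more smooth muscle or fibroblast markers, 3 of the 16 genes fell (Atp13a5, P2ry14 and Rgs4, with log2 fold changes of -1.74, -1.42 and -1.20), and the median was -0.57. Of all 7148 genes tested in that fit, 116 fell.

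**Figure D2:**
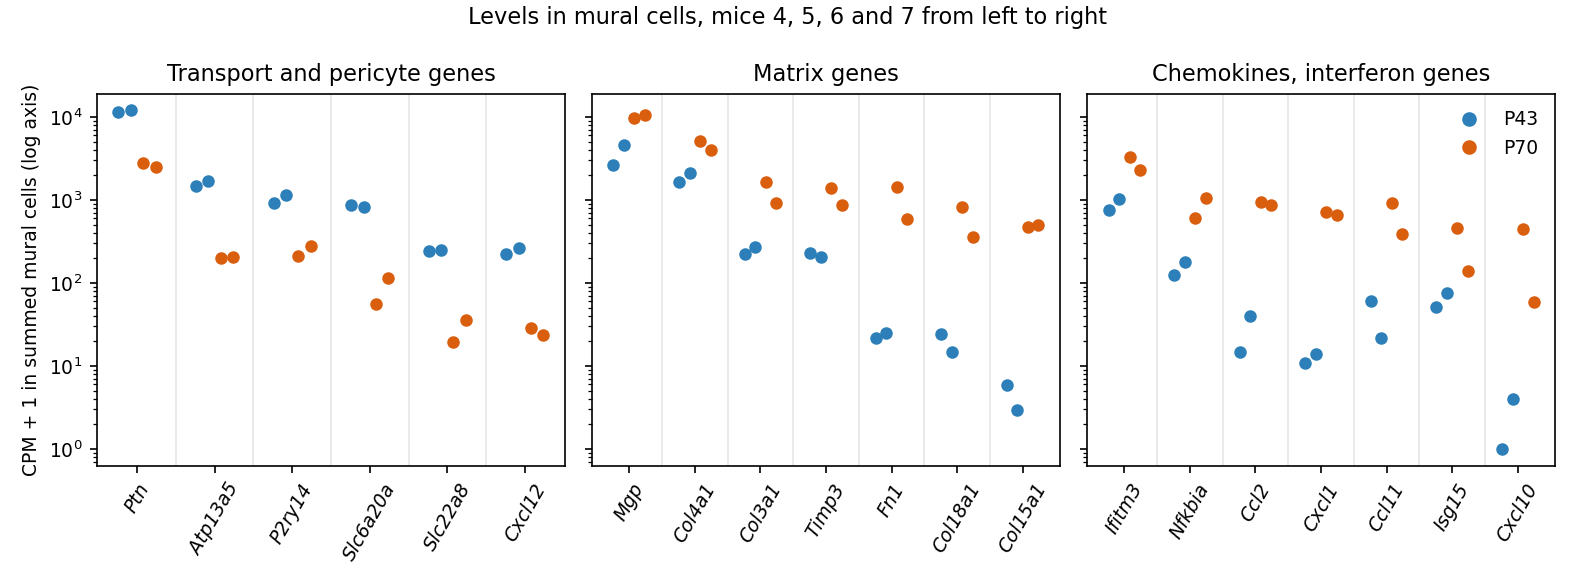
CPM + 1 (log axis) of 20 list genes in the summed mural cells, with mice 4 and 5 (P43, blue) and 6 and 7 (P70, orange) from left to right at each gene. Both P70 points lie below both P43 points for the 6 genes on the left, and above them for the 14 genes in the middle and on the right. The 20 genes are a selection from their lists. Of all genes tested, 38.4% had both P70 mice below and 15.9% had them above both P43 mice.

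Of 16 channel and cGMP signalling genes, 6 fell, 1 rose and 9 did not pass, with a median log2 fold change of -0.60. The inositol trisphosphate receptors, which release calcium from internal stores, both fell: Itpr1 from 349 and 373 CPM to 102 and 148 CPM, and Itpr2 from 293 and 375 CPM to 110 and 125 CPM. Casq2, which buffers calcium in those stores, fell from 315 and 525 CPM to 81.2 and 148 CPM. The T-type calcium channel gene Cacna1h fell by 2.48 and the background potassium channel gene Kcnk3 by 3.70 on the log2 scale. Gucy1b1, a subunit of the nitric oxide receptor, fell from 981 and 1406 CPM to 534 and 592 CPM (log2 fold change -0.96, adjusted p = 0.0231). Its partner Gucy1a1 did not pass, with 777, 816, 649 and 467 CPM. The potassium channel subunit Kcne4 rose to 111 and 228 CPM from 68.7 and 79.9 CPM, and in members without any UMI of the excluded genes its log2 change was -0.74. Without mouse 6, none of the 16 genes fell and 1 rose, while the median log2 fold change of the list was -0.76 and the 6 genes that had fallen kept a negative change.

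Among ligands, Ptn (pleiotrophin), a heparin-binding growth factor that pericytes supply to the brain, fell from 11418 and 11944 CPM to 2745 and 2482 CPM (log2 fold change -2.01, SE 0.27, adjusted p = 7.23e-05). Cxcl12, the ligand of Cxcr4, fell from 222 and 264 CPM to 27.9 and 22.8 CPM. Angpt2, the ligand that destabilises vessels, rose from 12.3 and 19.7 CPM to 60.4 and 102 CPM, and Mdk (midkine), a relative of pleiotrophin, from 63.8 and 46.3 CPM to 103 and 159 CPM. Without members that had 2 or more smooth muscle or fibroblast markers, the log2 change of Mdk was -0.23. Ptn, Cxcl12, Angpt2 and Mdk were the genes that passed of 9 ligand genes tested. Angpt1, the stabilising ligand of the same receptor, did not pass, with 22.1, 24.6, 41.8 and 22.8 CPM.

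Among 13 tested receptor genes, 2 rose, 2 fell and 9 did not pass. The endothelin receptor Ednra rose from 258 and 284 CPM to 547 and 410 CPM, and the BMP9 receptor Acvrl1 from 11.0 and 9.86 CPM to 40.6 and 22.8 CPM. Notch1 fell from 400 and 567 CPM to 208 and 148 CPM. The adenosine receptor gene Adora2a fell from 88.3 and 118 CPM to 42.9 and 22.8 CPM, and in members without any UMI of the excluded genes its log2 change was 0.07. Target genes of the Notch and TGF-beta pathways went both ways, 3 up and 3 down of 11. Hes1 and Hey2, targets of Notch, fell by 1.11 and 1.19 on the log2 scale, and Id1, a target of BMP signalling, by 1.64. The BMP target Id3 rose instead, from 234 and 291 CPM to 836 and 535 CPM, as did the matricellular genes Ccn1 and Ccn2 (log2 fold changes 1.86 and 1.94). Heyl, a Notch target of mural cells, did not pass, with 177, 346, 223 and 125 CPM. Without mouse 6, none of the 13 receptor genes and none of 12 tested target genes passed, and DESeq2 called 3 targets higher and none lower.

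Matrix genes were higher at P70. In the interstitial matrix list 17 of 19 tested genes rose, none fell, and 2 (Col1a2 and Igfbp7) did not pass, with a median log2 fold change of 2.68. Without mouse 6, 7 of 14 tested genes rose. Fn1 (fibronectin) rose from 20.8 and 23.7 CPM to 1436 and 592 CPM, a 52.4-fold change (log2 fold change 5.71, SE 0.41, adjusted p = 1.47e-07). At 1000 UMIs per cell Fn1 was seen in 0.787% and 0.405% of P43 members and in 52.9% and 39.1% of P70 members. Col3a1, a fibrillar collagen, rose from 222 and 268 CPM to 1641 and 911 CPM, and was seen in 18.9%, 19.0%, 55.4% and 56.5% of members against none in endothelial cells. The fibrillar collagen gene Col1a1 had 6.13 and 0 CPM at P43 and 536 and 91.1 CPM at P70 (log2 fold change 7.14). Col6a3, a microfibril collagen, rose from 1.23 and 1.97 CPM to 137 and 194 CPM. Mgp (matrix Gla protein), an inhibitor of vessel calcification, was abundant at both ages and rose from 2639 and 4604 CPM to 9808 and 10545 CPM (log2 fold change 1.63). The protease inhibitors Timp1 and Timp3 rose by 4.91 and 2.56 on the log2 scale. Both P70 mice lay above both P43 mice for each of the 17 genes but Igfbp5, whose value in mouse 7 was 11.4 CPM against 15.9 CPM in mouse 4. The P70 mice lay above the P43 mice in this way for 15.9% of all genes tested and for 95.4% of the 566 that rose, and below them for 38.4% of all genes tested.

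The basement membrane list was more divided: 5 of 16 genes rose, none fell and 11 did not pass, and 3 rose without mouse 6. Of the type IV collagen chains listed, Col4a1 rose from 1620 and 2086 CPM to 5162 and 3951 CPM. Col4a2 rose from 788 and 1011 CPM to 2586 and 1959 CPM. Col4a5 did not pass and was seen in 4.33%, 6.07%, 4.13% and 0% of members at 1000 UMIs. Lamb1, a laminin beta chain, rose from 213 and 209 CPM to 736 and 433 CPM. The collagens that link basement membrane to the matrix around it changed most. Col18a1, which holds the endostatin fragment, rose from 23.3 and 13.8 CPM to 814 and 353 CPM (log2 fold change 5.24), and Col15a1 from 4.90 and 1.97 CPM to 474 and 501 CPM (log2 fold change 7.26, SE 0.40, adjusted p = 7.42e-09). Nid1, Hspg2, Lama2 and Sparc did not pass, and Sparc stood at 3016, 3089, 3635 and 2870 CPM. Fibroblasts of vessel walls also make many of these collagens. Of the 6 fibroblast markers, Slc47a1 was at 0 in all 4 mice, Dpt had no UMI except in mouse 6, and Lum was at 0 in mice 5 and 7. Dcn rose from 40.5 and 26.6 CPM to 92.8 and 56.9 CPM, and the list summed to 634, 405, 511 and 194 CPM with Apod the most abundant. Apod was not confined to fibroblasts here. At 1000 UMIs it was seen in 20.9%, 17.7%, 31.0% and 22.2% of endothelial cells. In mural cells the shares with Apod were 14.2%, 18.6%, 22.3% and 8.70%. At 1000 UMIs, 2.76%, 2.43%, 4.96% and 8.70% of members had at least 2 fibroblast markers, both P70 values above both P43 values (exact two-sided permutation test, p = 0.3333, the smallest possible), and unthinned the shares were 8.44%, 10.4%, 13.2% and 6.25% and overlapped. A fit without members that had 2 or more smooth muscle or fibroblast markers is given further on. Members with fewer such markers stayed in it, and the part of fibroblasts in the matrix result was not tested.

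**Figure D3:**
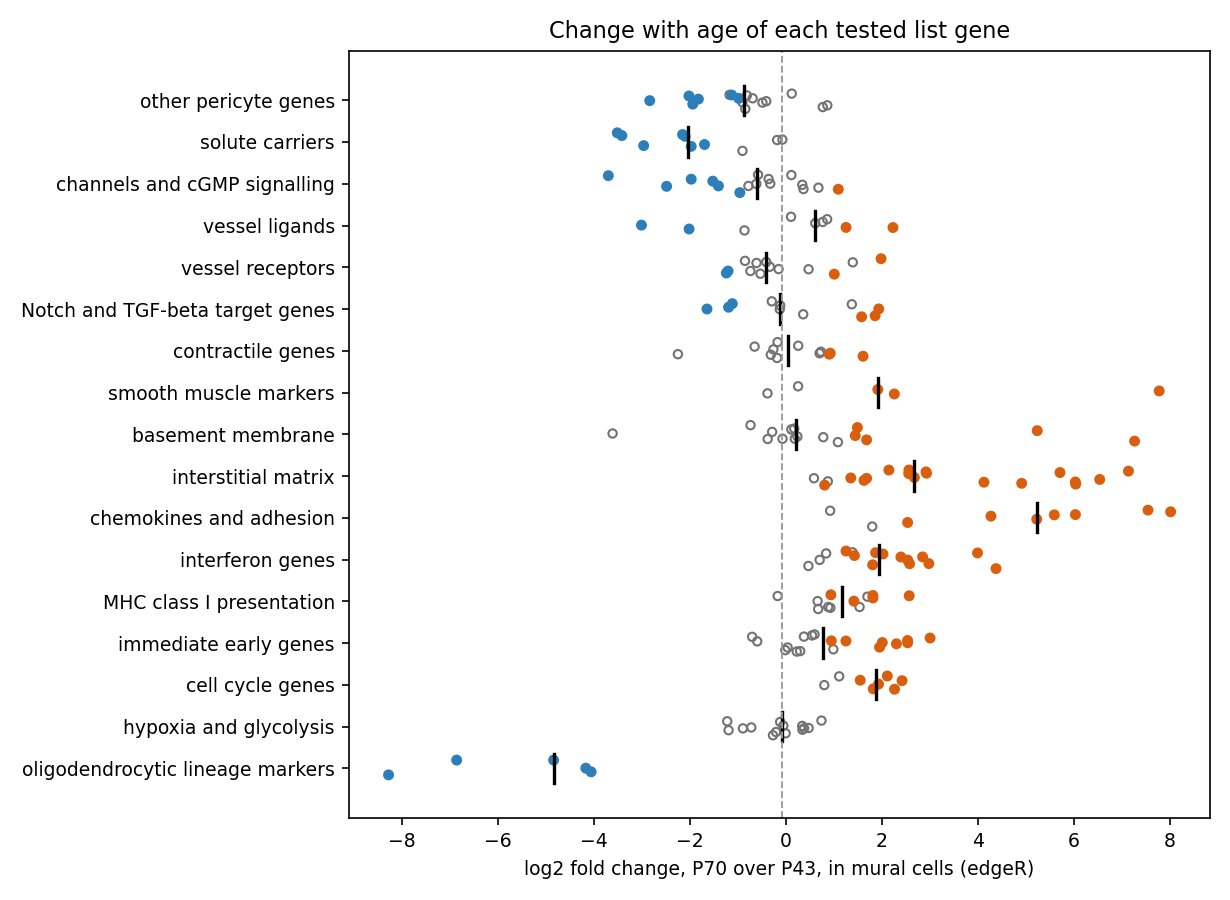
Log2 fold change from P43 to P70 in mural cells for each tested gene of 17 lists. Filled points passed the test (orange rose, blue fell), open points did not, black bars are list medians and the dashed line is the median of all tested genes (-0.077). The interstitial matrix (median 2.68) and chemokine (5.23) lists lie to the right of that line, and the solute carriers (-2.03) to its left.

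Chemokines and their regulators were higher at P70. Of 15 listed genes 9 were tested, 7 rose, none fell and 2 (Ccl19 and Csf1) did not pass. Without mouse 6, 4 of 5 tested genes rose. Ccl2, which attracts monocytes, rose from 13.5 and 38.5 CPM to 948 and 865 CPM (log2 fold change 5.23, SE 0.37, adjusted p = 1.47e-07). It was seen in 0.394% and 1.62% of P43 members and in 20.7% and 34.8% of P70 members at 1000 UMIs, against at most 0.535% of endothelial cells. Cells with at least 2 C1q genes held Ccl2 too, in 17.65%, 19.05%, 5.242% and 3.125% of those of mice 4, 5, 6 and 7. Over all cells, 0.792% and 5.22% of P43 members and 31.7% and 31.2% of P70 members had a Ccl2 UMI, so Ccl2 was found in a minority of the cells. Cxcl1, which attracts neutrophils, rose from 9.81 and 12.8 CPM to 715 and 649 CPM (log2 fold change 6.03). The eosinophil chemokine gene Ccl11 rose from 60.1 and 20.7 CPM to 905 and 387 CPM and stood at 0 CPM in the endothelial cells of each mouse. Il6, a cytokine gene, had no UMI at P43 and 45.3 and 34.2 CPM at P70, at least 24.2-fold higher than 3 UMIs over the P43 group would give. The adhesion gene Icam1 rose by 5.59 and the NF-kappa B inhibitor gene Nfkbia by 2.54 on the log2 scale. Myeloid markers were present in the same cells, chiefly in mouse 6, where Cd74 was seen in 16.5%, Lyz2 in 12.4%, Ctss in 9.92% and Fcer1g in 6.61% of members at 1000 UMIs, against at most 0.810% in either P43 mouse. In mouse 7 Fcer1g was seen in 4.35% and the other 7 markers were at 0. Their part in the chemokine result was not tested. Of these markers Fcer1g rose, from 2.45 and 1.97 CPM to 32.5 and 34.2 CPM, and Tyrobp and Cd74 did not pass.

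The Cxcl1 promoter is shown because the gene is one of the strongest risers and lies under NF-kappa B control in many cells. The window runs from 250 bases before to 50 after the annotated start, on chr5:90890995-90891294, plus strand (RefSeq, GRCm38.p6), and capitals mark matches on either strand to a form of the kappa B motif, GGG and TTTCC with any 2 bases between them, with their first bases 89 and 71 bases before the start.
Cxcl1: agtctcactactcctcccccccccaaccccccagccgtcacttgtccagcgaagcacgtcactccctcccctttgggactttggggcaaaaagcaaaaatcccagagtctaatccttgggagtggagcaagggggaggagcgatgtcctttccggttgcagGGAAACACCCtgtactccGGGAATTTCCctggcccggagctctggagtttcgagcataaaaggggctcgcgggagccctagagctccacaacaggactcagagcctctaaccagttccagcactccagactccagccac
This pattern was found in 4 of the 11 listed chemokine and adhesion genes with a RefSeq window (Cxcl1, Il6, Csf1 and Nfkbia) and in 1.89% of all 27025 genes with one. A match is a description of letters and no evidence of binding.

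Interferon-induced genes rose in the mural cells. Of 21 listed genes 16 were tested, 12 rose, none fell and 4 did not pass, with a median log2 fold change of 1.95. The list summed to 1258 and 1757 CPM at P43 and to 5734 and 3325 CPM at P70. Ifitm3 made up more of each sum than the other 20 genes, which summed to 509 and 722 CPM at P43 and to 2429 and 1013 CPM at P70. Without mouse 6, 3 of 14 tested genes rose, and DESeq2 called 5 of the 16. Ifitm3, which blocks the entry of viruses, rose from 749 and 1035 CPM to 3305 and 2312 CPM. Bst2 (tetherin), which holds budding viruses at the membrane, rose from 27.0 and 55.2 CPM to 348 and 205 CPM (log2 fold change 2.98, SE 0.35, adjusted p = 2.13e-05). Isg15, a ubiquitin-like modifier, rose from 50.3 and 74.9 CPM to 454 and 137 CPM. Ifit1, which binds foreign RNA, rose from 2.45 and 6.90 CPM to 83.6 and 34.2 CPM, and the transcription factor Irf7 from 1.23 and 5.92 CPM to 89.4 and 22.8 CPM. The mouse 7 values of Ifit1 and Irf7 rest on at most 3 UMIs each. Cxcl10, a chemokine induced by interferon, had 0 and 2.96 CPM at P43 and 439 and 56.9 CPM at P70. Mouse 6 exceeded mouse 7 in each of these 6 genes, and the ages overlapped for Ifit3, Oasl2 and Gbp7 although they passed. The 5 endothelial genes of the exclusion summed to 163, 112, 385 and 444 CPM in the same cells, led by Flt1 (123, 108, 363 and 433 CPM), with Cldn5 and Pecam1 at 0 in mouse 7. The myeloid markers of mouse 6 named above were in these cells too. The interferon list summed to 5450, 3679, 8875 and 3406 CPM in cells with at least 2 C1q genes and to 484, 796, 6723 and 399 CPM in the remaining kept cells, so that mouse 6 was highest in both. The part of endothelial, myeloid or other RNA in the interferon result was not tested.

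The promoters of 3 of these genes are printed because they hold letters that match the core of the interferon-stimulated response element (ISRE), one of the elements known from interferon-induced genes. Capitals mark matches on either strand to that core, GAAA and GAAA with any 2 bases between them, in windows of 300 bases (RefSeq, GRCm38.p6). The Isg15 window is chr4:156200769-156201068, minus strand, with 3 overlapping matches that begin 78, 72 and 66 bases before the start. The Ifit1 window is chr19:34640639-34640938, plus strand, with matches at 104 and 85 bases, and the Cxcl10 window is chr5:92348840-92349139, minus strand, with 1 match at 213 bases.
Isg15: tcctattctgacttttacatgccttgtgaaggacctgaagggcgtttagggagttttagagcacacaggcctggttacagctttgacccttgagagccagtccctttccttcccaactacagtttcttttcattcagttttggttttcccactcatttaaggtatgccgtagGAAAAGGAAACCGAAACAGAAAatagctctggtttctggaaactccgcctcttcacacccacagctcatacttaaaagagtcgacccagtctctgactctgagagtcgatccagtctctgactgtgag
Ifit1: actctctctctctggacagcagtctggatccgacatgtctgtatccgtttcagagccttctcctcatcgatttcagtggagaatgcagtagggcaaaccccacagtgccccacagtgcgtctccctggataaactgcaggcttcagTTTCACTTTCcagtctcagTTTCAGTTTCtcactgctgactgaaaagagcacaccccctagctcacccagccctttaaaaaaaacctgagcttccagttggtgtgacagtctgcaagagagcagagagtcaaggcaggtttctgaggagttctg
Cxcl10: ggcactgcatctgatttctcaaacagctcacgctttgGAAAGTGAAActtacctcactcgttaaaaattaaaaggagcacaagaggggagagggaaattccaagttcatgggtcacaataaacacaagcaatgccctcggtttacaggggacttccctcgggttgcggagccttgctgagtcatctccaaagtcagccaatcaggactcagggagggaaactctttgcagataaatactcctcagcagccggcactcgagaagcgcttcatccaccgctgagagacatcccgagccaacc
The core was present in 12 of the 17 listed interferon genes with a window, 6 of the 10 that rose and 6 of the 7 that did not or were not tested, and in 3.99% of all 27025 genes. It was not found in the windows of Irf7 and Irf1. Of the genes of MHC class I presentation, which interferon also raises, 5 of 12 tested rose. B2m, the light chain, rose from 231 and 281 CPM to 1027 and 524 CPM, and the immunoproteasome gene Psmb8 from 8.58 and 40.4 CPM to 159 and 79.7 CPM. The heavy chain H2-K1 rose in the fit but overlapped between the ages, with 148, 146, 510 and 79.7 CPM, and none of the 12 genes passed without mouse 6 and 2 did by DESeq2.

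Of the 18 immediate early and heat shock genes, which respond within minutes to stimulation and to tissue handling, 8 rose and none fell. Fos rose from 275 and 493 CPM to 1101 and 1663 CPM, Junb from 270 and 453 CPM to 1605 and 2266 CPM and Nr4a1 from 63.8 and 75.9 CPM to 238 and 455 CPM. The heat shock genes Hspa1a, Hspa1b and Dnajb1 did not pass, with 536, 704, 344 and 421 CPM of Hspa1a. In the endothelial cells Fos stood at 245, 486, 1034 and 1380 CPM, close to the mural values in each mouse. The part of tissue handling in these genes was not tested. The 16 genes of hypoxia and glycolysis gave 14 tested genes, none of which passed by edgeR, DESeq2 or with mouse 6 left out. Gapdh stood at 639, 615, 665 and 797 CPM and Bnip3 at 14.7, 16.8, 17.4 and 22.8 CPM.

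Of 5 tested smooth muscle markers 3 rose, with a median log2 fold change of 1.92. Acta2 (smooth muscle actin) rose from 218 and 362 CPM to 964 and 1640 CPM (log2 fold change 2.26, SE 0.31, adjusted p = 9.46e-05) and Tagln (transgelin) from 205 and 323 CPM to 826 and 1014 CPM. Actg2, an enteric actin, had no UMI at P43 and 39.5 and 22.8 CPM at P70. Myh11, the smooth muscle myosin heavy chain, did not pass and was 177, 226, 153 and 102 CPM, and Lmod1 was 45.4, 59.2, 59.2 and 45.5 CPM. Of 12 tested contractile genes Des (desmin), Tpm2 and Flna rose and 9, with Myl9, Mylk, Cald1 and Vcl among them, did not pass, and 1 rose without mouse 6. Myocd, the master regulator of smooth muscle, had 7.36 and 2.96 CPM at P43 and no UMI at P70, where 3 UMIs would be 3.48 CPM in mouse 6 and 34.2 CPM in mouse 7.

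Cells were also counted. After each cell was thinned to 1000 UMIs (shallower cells left out), at least 2 of the 6 smooth muscle markers were present in 8 of 254, 15 of 247, 25 of 121 and 6 of 23 members of mice 4, 5, 6 and 7. These are 3.15% and 6.07% at P43 against 20.7% and 26.1% at P70, with no overlap (exact two-sided permutation test, p = 0.3333, the smallest possible). No endothelial cell reached 2 markers among 321, 469, 187 and 18. Unthinned, the shares were 3.17%, 9.70%, 37.1% and 31.2%. The size of the difference, 18.8 percentage points, varied with the count required and with the depth, which also changed the cells counted. With at least 3 markers the shares were 2.36%, 4.05%, 6.61% and 13.0% (a difference of 6.62), at 500 UMIs they were 2.11%, 3.73%, 13.2% and 9.38% (8.35), and at 2000 UMIs 4.49%, 7.49%, 27.6% and 42.9% (29.2), none of them with overlap. A total of 85 members at 1000 UMIs lay just below, with exactly 1 marker.

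The cells that carried these markers differed between the ages. At P43 the 12 and 26 such members, over all UMIs, held 1960 and 1430 CPM of Myh11, 484 and 375 CPM of Lmod1, 242 and 206 CPM of Pln (phospholamban, a regulator of the calcium pump) and 145 and 26.8 CPM of Myocd beside 4307 and 3253 CPM of Acta2. At P70 the 62 and 10 such members still had 1526 and 2653 CPM of Acta2 but 227 and 153 CPM of Myh11, 91.4 and 76.3 CPM of Lmod1, 3.81 and 19.1 CPM of Pln and no UMI of Myocd. The channel subunit Abcc9 was 266 and 438 CPM in the P43 cells, below the 915 and 1401 CPM of the members with 0 or 1 marker, and 735 and 725 CPM in the P70 cells, below the 1247 and 1214 CPM of theirs. Acta2 also differed among members with 0 or 1 marker, with 0 and 3.33 CPM at P43 and 89.1 and 141 CPM at P70. The marker-bearing cells of mouse 6 had a median of 7474 UMIs against 1286 for its other members, those of mouse 7 had 5406 against 1153.5, those of mouse 4 had 3672 against 1735 and those of mouse 5 had 4171 against 3531. The part of this depth gap in the split was not tested. These contrasts between cells grouped by their own markers carry no test.

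**Figure D4:**
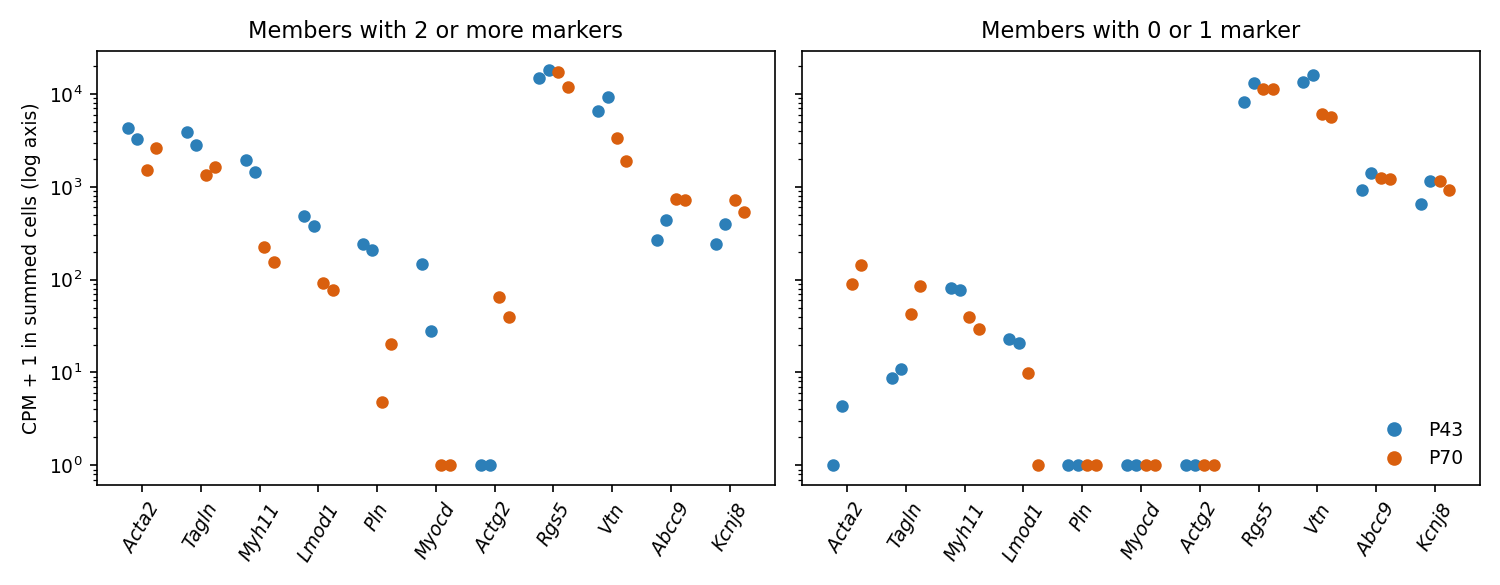
CPM + 1 (log axis) in members with at least 2 (left) and with 0 or 1 (right) of the 6 smooth muscle markers, over all UMIs, for mice 4 and 5 (P43, blue) and 6 and 7 (P70, orange) from left to right. Acta2 and Tagln stand above 1300 CPM in all 4 mice on the left, whereas Myh11 is 1960 and 1430 CPM at P43 and 227 and 153 CPM at P70.

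Excluding members with 2 or more smooth muscle or fibroblast markers left 335, 217, 95 and 21 cells and gave 360 calls, 337 of them shared with the 982. Of all 7148 genes tested in these cells, 244 rose and 116 fell. Of the matrix list 11 of 15 tested genes, of the chemokines 6 of 6 and of the interferon genes 14 of 16 rose in these cells. Of 10 solute carriers 5 fell.

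The 8 cell cycle genes summed to 313, 189, 927 and 512 CPM in mural cells of mice 4, 5, 6 and 7, to 141, 25.4, 279 and 119 CPM in endothelial cells and to 1179, 924, 791 and 1718 CPM in the remaining kept cells. Mural cells of mouse 6 thus lay above the other cells of the same tumor. Of the 8 genes, 6 rose, among them Mki67 from 49.0 and 45.4 CPM to 221 and 171 CPM and Cenpf from 41.7 and 20.7 CPM to 172 and 91.1 CPM. Top2a rose in the fit, but with 61.3, 42.4, 171 and 45.5 CPM its values overlapped, and 1 of the 8 passed without mouse 6 and 2 by DESeq2. Members with at least 2 of these genes at 1000 UMIs made up 3.54%, 0.810%, 9.09% and 0% of mice 4, 5, 6 and 7 (0 of 23 in mouse 7), which overlapped between the ages (exact two-sided permutation test, p = 1). Whether the ages overlapped varied with the depth used, and so did the cells counted. Mouse 7 gave 23 cells at 1000 UMIs, 14 at 2000 and 32 unthinned. At 2000 UMIs the shares were 3.93%, 0.881%, 12.6% and 21.4%, the last being 3 of 14 cells, and unthinned they were 7.12%, 1.12%, 13.2% and 12.5%, both without overlap (exact two-sided permutation test, p = 0.3333 in each). At 500 UMIs they were 3.17%, 0.746%, 2.99% and 3.12% and overlapped. At 1000 UMIs endothelial cells gave 3.74%, 0%, 4.81% and 0%.

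The 12 largest rises among genes with non-overlapping mice and at least 20 CPM were Dlk1, Cpa1, Il6, Aldh1a2, Adamts12, Actg2, Cxcl10, Ifi27l2a, Col15a1, Col1a1, Sema3a and 2200002D01Rik. Dlk1 (chr12:109452823-109463336), a non-canonical Notch ligand of immature stromal cells, had no UMI at P43 and 116 and 228 CPM at P70. Cpa1, a carboxypeptidase of the exocrine pancreas, likewise had none at P43 and 98.7 and 68.3 CPM at P70. Aldh1a2, which makes retinoic acid, had none against 39.5 and 45.5 CPM, and the repulsive guidance gene Sema3a none against 19.7 and 22.8 CPM. Ifi27l2a, an interferon-induced gene, had 1.23 and 2.96 CPM at P43 and 436 and 171 CPM at P70. In mouse 7 several of these values rest on few molecules, 20 UMIs for Dlk1, 6 for Cpa1, 4 for Aldh1a2 and 2 for Sema3a.

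The 12 largest falls were Mog, Stmn4, Gpr37, Fa2h, Hapln2, Ccdc149, Mal, Klk6, Olfr655, Dcdc2a, Aldh1a1 and Ermn. Mog, Mal, Fa2h, Gpr37, Hapln2, Klk6 and Ermn are genes of myelinating oligodendrocytes, not of mural cells. Mog had 90.7 and 26.6 CPM at P43 and no UMI at P70. All 5 tested oligodendrocytic markers of the 7 listed fell, and 2 of 7 tested did without mouse 6 and 2 of 5 by DESeq2. The list summed to 1681, 240, 42.9 and 45.5 CPM in the mural cells, with Mbp (911, 90.7, 23.2 and 34.2 CPM), a myelin protein gene, the most abundant and Mog, Cldn11, Mal, Sox10 and Olig1 at 0 in mouse 7. It summed to 2404, 838, 516 and 787 CPM in endothelial cells, led there by Mal, and to 892, 84.9, 77.6 and 107 CPM in cells with at least 2 C1q genes, so that mouse 4 was highest in all 3 classes. At 1000 UMIs Mbp was seen in 25.6%, 1.62%, 0.826% and 4.35% of mural and in 19.6%, 2.77%, 3.21% and 5.56% of endothelial cells. The part of this RNA from other cells in the falls was not tested, and no change in mural cells is read from these genes. Dcdc2a (chr13:25056004-25210706), a doublecortin family gene outside that group, fell from 208 and 236 CPM to 2.32 and 0 CPM (log2 fold change -6.47).

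Endothelial cells of the same tumors served as a second vessel class, 486, 491, 241 and 33 cells in mice 4, 5, 6 and 7. An interaction term, with mouse as a block, asked which genes changed otherwise with age in mural than in endothelial cells. Of 10285 genes tested outside the selection genes, 305 (2.97%) had the higher change in mural cells and 267 (2.6%) the lower one. The total of 572 fell to 338, 214, 13 and 343 when mouse 4, 5, 6 or 7 was left out, so most of the calls were lost without mouse 6. DESeq2 called 116.

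Of the 21 interferon genes, all tested here, 17 had the higher change in mural cells and none the lower. Without mouse 6 none of the 21 passed. Isg15 was 50.3, 74.9, 454 and 137 CPM in mural cells and 274, 680, 365 and 327 CPM in endothelial cells of mice 4, 5, 6 and 7 (difference in log2 change 2.99, SE 0.33, adjusted p = 2.37e-09). Ifit1 was 103, 229, 125 and 134 CPM in endothelial cells (difference 4.43). For both genes the endothelial values at P43 lay above the mural values at P43. The list as a whole summed to 2863, 6171, 4795 and 4111 CPM in endothelial cells.

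Matrix genes split by gene. Fn1 rose in mural cells as above and stood at 1037, 1035, 1721 and 1262 CPM in endothelial cells (difference in log2 change 5.05, SE 0.35, adjusted p = 2.75e-15). Timp3 was 912, 720, 383 and 609 CPM in endothelial cells (difference 3.40), and Col18a1 24.3, 20.2, 108 and 193 CPM (difference 2.96). The proteoglycan gene Bgn went the other way. It was already 809 and 864 CPM in P43 mural cells and 1417 and 1218 CPM at P70, but 12.6, 4.66, 262 and 223 CPM in endothelial cells (difference -4.23). Nid1, a linker of the basement membrane, was 831, 1069, 930 and 672 CPM in mural and 80.9, 94.2, 331 and 653 CPM in endothelial cells (difference -2.33). Col4a1 did not differ by the test (difference 0.21, SE 0.31), with 661, 771, 1232 and 2271 CPM in endothelial cells.

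Among regulators, Id3 rose in mural cells while it stood at 1274, 1566, 672 and 668 CPM in endothelial cells (difference 2.63). The shear-responsive factor Klf2 was 52.7, 70.0, 180 and 592 CPM in mural and 1734, 1782, 868 and 1158 CPM in endothelial cells (difference 3.12). Itpr1 fell in mural cells and was 42.2, 58.0, 98.3 and 163 CPM in endothelial cells (difference -2.75). Slc22a8 was 340, 407, 240 and 148 CPM there (difference -2.82). The peptide hormone gene Adm (adrenomedullin) was 34.3, 47.3, 15.1 and 22.8 CPM in mural and 22.5, 40.9, 136 and 178 CPM in endothelial cells (difference -3.43). Ptn and Cxcl12 gave no difference that passed: endothelial Cxcl12 was 3388, 3833, 311 and 1276 CPM (difference 0.02, SE 0.59).

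**Figure D5:**
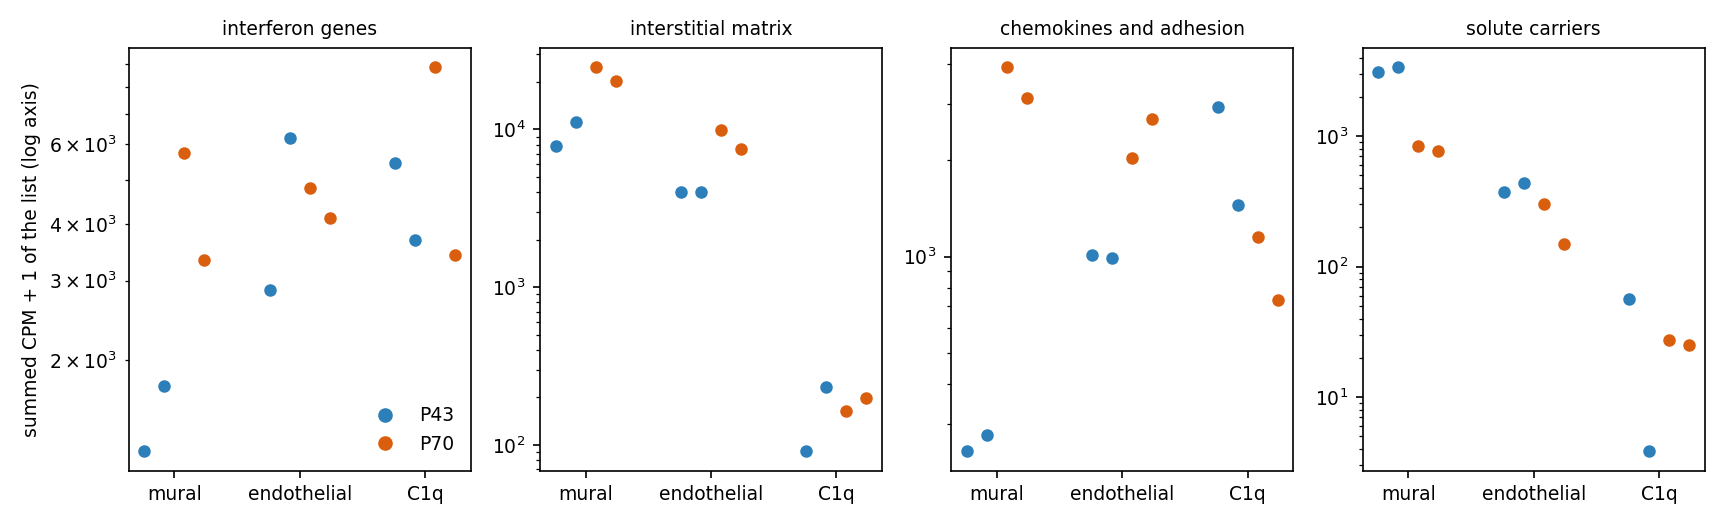
Summed CPM + 1 (log axes of different range) of 4 gene lists in mural cells, endothelial cells and cells with at least 2 C1q genes, for mice 4 and 5 (P43, blue) and 6 and 7 (P70, orange) from left to right. The mural sums of interferon genes, led by Ifitm3, are 1258, 1757, 5734 and 3325 CPM, and those of the solute carriers 3111, 3394, 839 and 774 CPM.

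The 8 largest differences in each direction had few or no UMIs in some of the libraries. Col14a1, Eln, Olfml2b, Thy1, Fbn1, Tead4, Map1a and Mmp11 had the higher and Npr3, Dkk2, Wscd1, Kcna5, Kcnj2, Cnksr3, Fam13a and Sh3bp5 the lower change in mural cells. Thy1, a surface glycoprotein of stromal cells and neurons, was 3.68, 3.94, 153 and 262 CPM in mural and at most 7.19 CPM in endothelial cells. Fbn1 (fibrillin), a microfibril protein, was 4.90, 0, 168 and 68.3 CPM in mural cells. Eln (elastin) was found only in mouse 6 among mural libraries, at 70.8 CPM. Dkk2, a Wnt antagonist, was 63.8 and 80.8 CPM at P43 and 2.32 and 0 CPM at P70. Sh3bp5 was 132, 90.7, 4.64 and 11.4 CPM in mural and 43.1, 30.5, 154 and 89.1 CPM in endothelial cells (difference -6.29, SE 0.51, adjusted p = 2.54e-13).

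The reporter transcript FLUC, on which cells were excluded, stood at 105, 51.3, 45.3 and 182 CPM in mural cells, at 60.2, 19.7, 17.5 and 74.2 CPM in endothelial cells and at 546, 1291, 778 and 1147 CPM in the remaining kept cells. The fewer than 5 UMIs a member could hold limit its value from above.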

How the data were processed

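The deposited matrices hold raw UMI counts per gene and barcode, which the authors made with Cell Ranger 6.0.2 on mm10 according to the submitters' processing notes, with the reporter sequences added. From these counts, cells were selected as described, and UMIs were summed per mouse and class. Each mouse was 1 replicate, so p-values measure the spread between these mice. Ages were compared with edgeR 4.0.16 (R 4.3.3; filterByExpr, TMM, quasi-likelihood test, Benjamini-Hochberg threshold 0.05), mural and endothelial changes with an interaction term and mouse as block, and shares with exact permutation tests. The scripts were tested on simulated data. DESeq2 1.42.0 and other cell filters were alternatives. CPM are counts scaled to a total of 1000000 UMIs in the summed class, and a floor is 3 UMIs. Shares of kept and vessel cells used all UMIs, shares with smooth muscle, fibroblast or cell cycle genes used cells thinned to 1000 UMIs, and intervals are 95% Clopper-Pearson, for counting error only. Floors cover the same error.

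Named were the genes of 30 lists, the 12 largest rises and 12 largest falls at 20 CPM or more with no overlap between ages, and the 8 largest interactions in each direction. The members and lists were chosen with earlier results of these data known. Some listed genes are not reported here and were left out of the lists. The 4 Y chromosome genes were used for the sex check. In every age comparison with 1 mouse left out, the lone mouse is assumed to vary like the others. Positions are GRCm38. Reads of overlapping genes and close paralogs, such as the Ifit, H2 and hemoglobin genes, may have been split or dropped in counting.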

Additional observations from a re-analysis of the deposited data

Results flagged for a closer look

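The results below were singled out because the change with age differed between mural and endothelial cells by the interaction test (edgeR). Values are the difference in log2 change, mural minus endothelial. In all, 305 genes had the higher and 267 the lower change in mural cells.

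The largest higher values were those of Col14a1 (11.53), Eln (9.44), Olfml2b (8.37), Thy1 (7.15), Fbn1 (7.03), Tead4 (6.99), Map1a (6.94) and Mmp11 (6.83). The largest lower values were those of Npr3 (-11.70), Dkk2 (-10.17), Wscd1 (-8.25), Kcna5 (-8.02), Kcnj2 (-7.53), Cnksr3 (-6.94), Fam13a (-6.78) and Sh3bp5 (-6.29). Many of these genes had libraries at 0, and the size fitted for them depends on the prior count. Among the listed genes, Fn1 (5.05), Ifit1 (4.43), Timp3 (3.40), Klf2 (3.12), Isg15 (2.99), Col18a1 (2.96) and Id3 (2.63) had the higher change in mural cells. Bgn (-4.23), Adm (-3.43), Slc22a8 (-2.82), Itpr1 (-2.75) and Nid1 (-2.33) had the lower one. Without mouse 6, 5 of the 28 genes still passed and 20 did not, all 25 with the same sign.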

How the results depend on the processing

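The comparison of ages gave 982 calls. It gave 544 with at least 2 mural genes required (489 shared with the 982), 105 in members without any UMI of the excluded genes (100 shared), 360 without cells of smooth muscle or fibroblast markers (337 shared), 272 with equal cells per mouse (261 shared, 2458 genes tested) and 438 by DESeq2 (437 shared). More calls came with at least 4 mural genes required (1328, 943 shared) and without the filter on low counts (1253, 967 shared). Cells with at least 1000 UMIs gave 1100 (960 shared) and library size only gave 1054 (880 shared). With 1 mouse left out the count ranged from 305 to 1098. The interaction gave 572 calls, and 186, 326, 41 and 116 in members without those UMIs, without marker cells, with equal cells and by DESeq2, of which 174, 297, 38 and 116 were shared with the 572, and 13 to 343 with 1 mouse left out. Calls shared with the original fit kept their sign in each of these settings. These fits reuse the same mice and only genes past the limit in both were compared. Kept signs are thus no independent support, here or for the flagged genes. The share of higher calls with age was 57.6%, and 44.0% by library size only, 71.2% by DESeq2, and 67.8% both with at least 2 mural genes and without marker cells.

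Log2 changes that reversed were those of Adora2a (0.0746) and Kcne4 (-0.74) in members without any UMI of the excluded genes, Mdk (-0.23) without marker cells, and 3 genes without mouse 6. With 1 mouse left out H2-K1 ranged from -0.75 to 2.02, Oasl2 from -0.55 to 4.37 and Top2a from -0.0415 to 1.96. The difference in the mural share of vessel cells became -3.42 percentage points in members without those UMIs, and that in the share with fibroblast markers -0.489 at 500 UMIs. The difference in cycling cells became -2.18 without mouse 6, the lowest of a range up to 6.91 with 1 mouse left out. The causes were not tested. Of the named age genes, 80 kept their call and 44 lost it by DESeq2, 49 kept and 57 lost it without mouse 6, and 27 kept and 46 lost it in members without any UMI of the excluded genes, beside the reversals above. Fits by library size only and in cells with at least 1000 UMIs were added after seeing the data. No paired analysis was possible because the ages share no mouse number. With 32 mural cells, mouse 7 limits what could be detected at P70.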
